A study of Mus musculus with 2 samples.

Results

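The genes described here encode the collagens, laminins and linker proteins of the basement membrane, measured in single cells of a hepatic stellate cell (HSC) preparation from fibrotic mouse liver. The 10 genes were taken as a named list of 31054 measured features: the collagen IV chains Col4a1, Col4a2 and Col4a5, the laminin chains Lama2, Lama4, Lamb1 and Lamc1, the nidogens Nid1 and Nid2, and Hspg2, which encodes perlecan. Their levels were compared between 2 genotypes within HSCs, endothelial cells and Kupffer cells, each defined by the summed UMIs of other genes. A UMI is a molecular tag that counts 1 captured transcript.

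A basement membrane is a thin sheet of matrix built from a laminin network and a collagen IV network, which nidogens and perlecan tie together. Laminins are secreted as trimers of an alpha, a beta and a gamma chain, and collagen IV as trimers of alpha chains. The liver sinusoid normally lacks a continuous basement membrane, and collagen IV and laminin gather in the space between hepatocytes and endothelium as fibrosis develops. HSCs are the pericytes of this space and its main source of fibrillar collagen once activated.

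There were 2 libraries of male mice on a C57BL/6 background, 1 per genotype, and each genotype received carbon tetrachloride (CCl4) for 4 weeks with tamoxifen (TAM) and diphtheria toxin (DT). The p16-Alb-LRTD mice were heterozygous for the R26-CAG-LSL-RSR-tdTomato-2A-DTR reporter and for 2 recombinases, p16-CreERT2 and Alb-DreERT2, so that hepatocytes with high p16 expression carried the DT receptor and were eliminated. The p16-LRTD mice, the control genotype, carried p16-CreERT2 and the same reporter without the hepatocyte recombinase. The paper reports very mild fibrosis away from the central veins only in mice with both the hepatocyte recombinase and the reporter. It proposes that some DT receptor was expressed there by leakage. Neither the age of the mice nor the number pooled into each library is given in the sources used here, so the spread between mice is unknown and no test between genotypes was possible. Every interval below is a 95% interval that covers counting error only. No genotype difference below was tested.

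Before filtering there were 11149 barcodes with 193746596 UMIs in p16-LRTD and 8806 with 162219167 in p16-Alb-LRTD. After filtering, 9004 and 7416 barcodes remained, with medians of 17177 and 18273 UMIs. The libraries shared 18 of these barcode sequences, which were kept. Stellate barcodes were those with at least 15 UMIs of Lrat, Ecm1, Hgf and Reln together per 10000 UMIs, and numbered 7852 in p16-LRTD and 6621 in p16-Alb-LRTD. Endothelial barcodes had at least 8 of Kdr, Stab2 and Ptprb and numbered 430 and 283. Kupffer barcodes, named for the resident macrophages of the liver, had at least 8 of Clec4f, Cd5l, Vsig4 and Csf1r and numbered 283 and 178. A barcode past more than 1 of these limits was kept apart. The 9 stellate markers summed to 32488 and 36465 CPM, the UMIs of a gene per 1000000 UMIs of the class, in stellate barcodes. In endothelial barcodes they summed to 771 and 786 CPM. The 9 endothelial markers summed to 15523 and 14811 CPM in endothelial barcodes and to 81.3 and 57.2 in stellate barcodes. Both lists include genes that define the classes, so these sums are partly fixed by the limits. Outside those genes, Dcn stood at 18429.8 and 22185.5 CPM in stellate and at 319 and 258 CPM in endothelial barcodes. Clec4g stood at 1225 and 1268 CPM in endothelial and at 28.5 and 14.96 CPM in stellate barcodes.

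Col4a1 and Col4a2 lie head to head on chromosome 8 in mm10 (GRCm38), Col4a1 on the minus strand at chr8:11198423-11312826 and Col4a2 on the plus strand at chr8:11312805-11449287. In the GENCODE vM21 annotation their 5′ ends overlap by 22 bases. That stretch is shown because its 2 genes had nearly the same ratio between genotypes in stellate and in endothelial barcodes. Whether the stretch bears on these ratios was not tested. It is given on the plus strand, read from the RefSeq promoter table (GRCm38.p6), with the motif GGGCGG, a GC box, in capitals.
Col4a1 and Col4a2 overlap, chr8:11312805-11312826: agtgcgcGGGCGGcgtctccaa
Of the 10 genes, 7 had a promoter in that table. In the 250 bases before the start site, on either strand, GGGCGG stood in the windows of Col4a2, Col4a5, Lamb1, Nid1 and Hspg2 and in 32.7% of 32851 promoters. The letters CCAAT stood in those of Col4a1, Col4a2, Col4a5, Lamb1 and Nid1 and in 33.8% of all. The letters CCCTCCCC stood in those of Col4a2, Col4a5 and Nid1 and in 9.69% of all. The motifs were counted separately, overlaps included, and are matches of letters only.

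In stellate barcodes, 8 of the 10 genes had lower levels in p16-Alb-LRTD and passed the minimum of a mean of 5 CPM, Lama2 was slightly higher, and Lama4 lay under the minimum. Past a 1.5-fold difference, 2 of the 9 genes that passed were lower, Col4a5 and Nid2, and 0 were higher. Over all 10179 genes that passed in this class, 3.05% were lower and 3.03% higher by that much. All 9 stood at 5 CPM or more in each library, as did 9941 genes in all, of which 2.26% were lower and 2.8% higher. The median log2 ratio of the 9 was -0.45, against -0.05 over all genes, of which 60.7% had a ratio below 0. The members' levels by class and library are in the plot of CPM, and their ratios in the plot of differences.

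**Figure D1:**
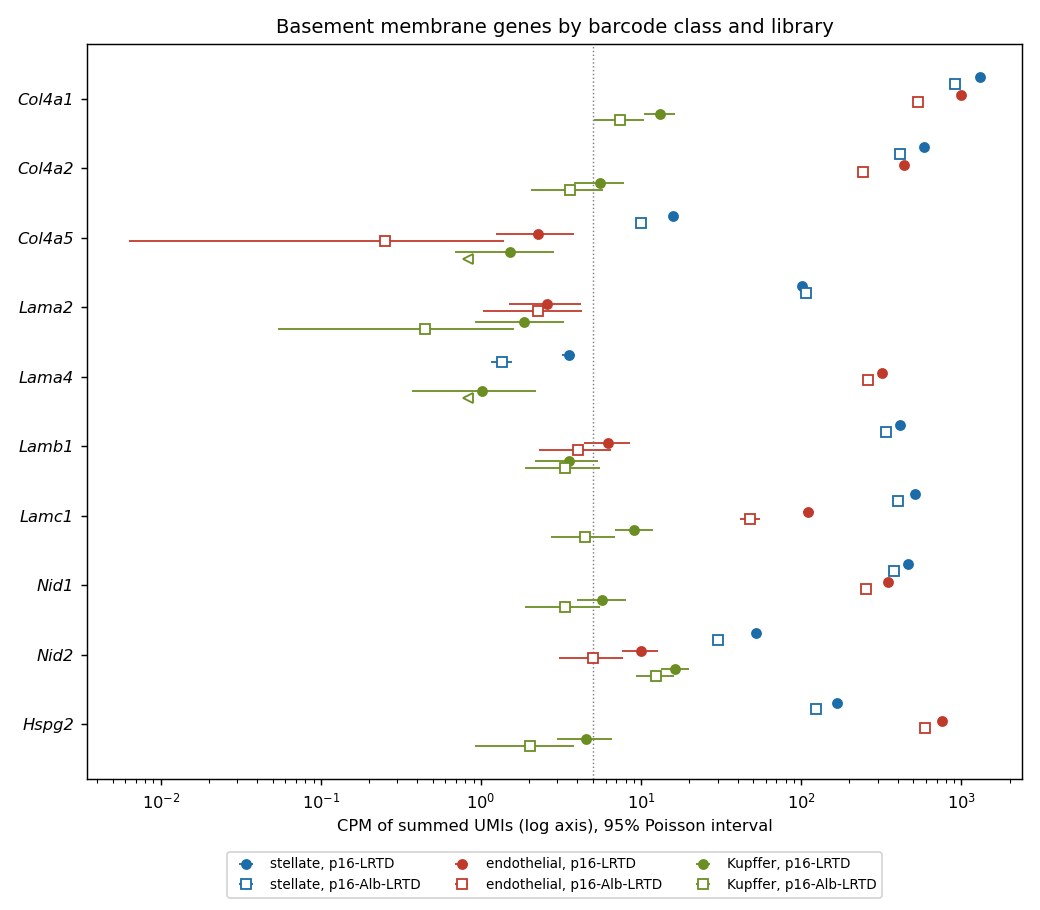
Level of each basement membrane gene (rows) as CPM of the summed UMIs of a class, on a log axis, with 95% Poisson intervals. Colours mark stellate, endothelial and Kupffer barcodes, filled circles p16-LRTD and open squares p16-Alb-LRTD. Open triangles are upper limits of the interval where no UMI was counted, and the dotted line marks 5 CPM. Stellate and endothelial points of Col4a1 lie between 537 and 1300 CPM, and its Kupffer points at 13.1 and 7.38 CPM.

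Col4a1 and Col4a2, whose products form the common collagen IV trimer, differed between the libraries by nearly the same amount in stellate barcodes. In stellate barcodes of p16-LRTD, Col4a1 stood at 1300 CPM (1294 to 1306), and in those of p16-Alb-LRTD at 917 CPM (911 to 922). Its log2 ratio was -0.50 (-0.51 to -0.49), a level 1.42-fold lower. Col4a2 stood at 584 and 415 CPM, with a log2 ratio of -0.49 (-0.51 to -0.48). For both genes the intervals of the libraries lie far apart.

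Col4a1 gave 2.23 UMIs for each Col4a2 UMI (2.21 to 2.25) in p16-LRTD stellate barcodes and 2.21 (2.19 to 2.23) in p16-Alb-LRTD. In endothelial barcodes the ratio was 2.27 (2.17 to 2.38) and 2.22 (2.06 to 2.40), so that the pair kept nearly the same proportion in both cell types and both genotypes. A ratio of 3′ counts is not a ratio of molecules, since capture differs between genes. In barcodes past none of the limits it was 1.97 in each library. Across single stellate cells thinned to 5000 UMIs, Pearson's r between the 2 genes was 0.30 over 7836 cells of p16-LRTD and 0.32 over 6614 cells of p16-Alb-LRTD. The cells of a library share its preparation and depth.

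The lower Col4a1 level was spread over cells rather than held by a few. The median stellate cell carried 20 Col4a1 UMIs in p16-LRTD, with quartiles of 13 and 30, and 14 in p16-Alb-LRTD, with quartiles of 8 and 23. Thinned to 5000 UMIs per cell, the medians were 6 and 4. A Col4a1 UMI was found in 98.3% (97.9 to 98.5) and 93.6% (93.0 to 94.2) of thinned stellate cells, with 16 and 7 shallower cells left out. A Col4a2 UMI was found in 90.7% and 80.1%. In Kupffer barcodes thinned alike, a class where both genes lay at the level of free RNA described below, Col4a1 was found in 6.83% and 3.39%. Median depths before thinning were 17024.5 and 18136 UMIs in stellate and 19514 and 25101.5 in Kupffer barcodes, and 99.97% and 99.67% of stellate cells held a Col4a1 UMI without thinning.

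**Figure D2:**
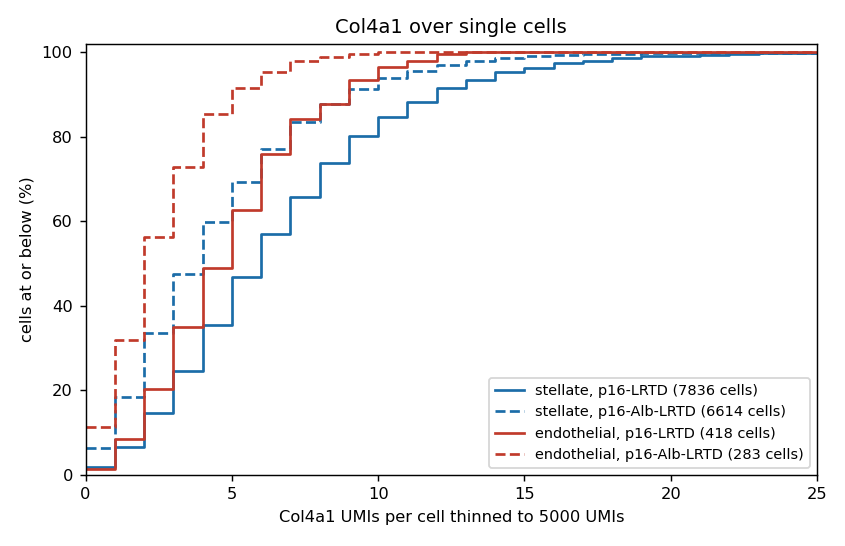
Cumulative share of cells (y axis, %) at or below each number of Col4a1 UMIs (x axis) after thinning each cell to 5000 UMIs. Blue lines are stellate and red lines endothelial cells, solid p16-LRTD and dashed p16-Alb-LRTD. The dashed lines lie to the left of the solid ones over the range of the distribution, with medians of 4 against 6 UMIs in stellate and 2 against 5 in endothelial cells.

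The laminin chains did not move alike in stellate barcodes. Lamb1, a laminin beta chain, stood at 414 CPM (411 to 417) and 337 CPM (334 to 340), a log2 ratio of -0.30 (-0.32 to -0.28). Lamc1, the gamma chain shared by most laminin trimers, stood at 516 CPM (513 to 520) and 403 CPM (400 to 407), a log2 ratio of -0.36 (-0.37 to -0.34). Lama2, the alpha chain of laminin-211, stood at 101 CPM (99.8 to 103) and 106 CPM (105 to 108). Its log2 ratio of 0.07 (0.04 to 0.10) became -0.007 when each cell was given equal weight.

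Lama4, the alpha chain of the vascular laminins, had only 502 and 168 UMIs in all stellate barcodes, or 3.52 and 1.34 CPM. These were 1.10% and 0.515% of its endothelial level. Of 5 endothelial genes set beside it as a reading of free RNA, Egfl7 stood in stellate barcodes at 2.69% and 3.97% of its endothelial level and Clec4g at 2.33% and 1.18%. The others, Cdh5, Lyve1 and Oit3, stood at 0.184%, 0.159% and 0.106% in p16-LRTD and at 0.144%, 0.299% and 0.0966% in p16-Alb-LRTD. Lama4 thus lay within the range of the 5 in each library, above 3 of them, and whether HSCs transcribe it cannot be told from these levels. Lama1, an alpha chain that is not among the 10 genes, stood at 283 CPM (log2 ratio -0.45, -0.48 to -0.43, to 207 CPM).

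The linker proteins were lower by unlike amounts. Nid1, which bridges laminin and collagen IV, stood at 461 CPM (458 to 465) and 379 CPM (376 to 383), a log2 ratio of -0.28. Nid2, its paralog, stood at 52.3 CPM (51.1 to 53.5) and 30.02 CPM (29.1 to 31.0), a log2 ratio of -0.80 (-0.86 to -0.74), or 1.74-fold lower. A Nid2 UMI was found in 22.6% (21.7 to 23.5) and 13.5% (12.7 to 14.4) of stellate cells thinned to 5000 UMIs, and in 55.9% and 39.5% unthinned. The shares of thinned endothelial cells were 5.02% and 2.12%. Hspg2, the heparan sulfate proteoglycan perlecan, stood at 168 CPM (166 to 170) and 123 CPM (121 to 125), a log2 ratio of -0.45 (-0.48 to -0.42). For all 3 genes the intervals of the libraries do not meet.

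Col4a5, a chain of the collagen IV trimer that also holds Col4a3 and Col4a4, was the other gene past 1.5-fold. It stood at 15.7 CPM (15.1 to 16.4) and 9.94 CPM (9.40 to 10.5), a log2 ratio of -0.66 (-0.76 to -0.56). This ratio depends on which cells are weighed: it was -0.50 in cells of 10000 to 30000 UMIs and -0.33 with each cell given equal weight, both under 1.5-fold, and 0.51, the opposite direction, when both libraries were given the same shares of cells by fibrillar collagen level. Unlike Col4a1, it was held by few cells: 787 of 7852 p16-LRTD cells, or 10.0%, and 485 of 6621 p16-Alb-LRTD cells, or 7.33%, had a Col4a5 UMI. After thinning to 5000 UMIs the shares were 4.34% (3.90 to 4.81) and 3.61% (3.18 to 4.09), against 0.719% and 0% of Kupffer cells.

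**Figure D3:**
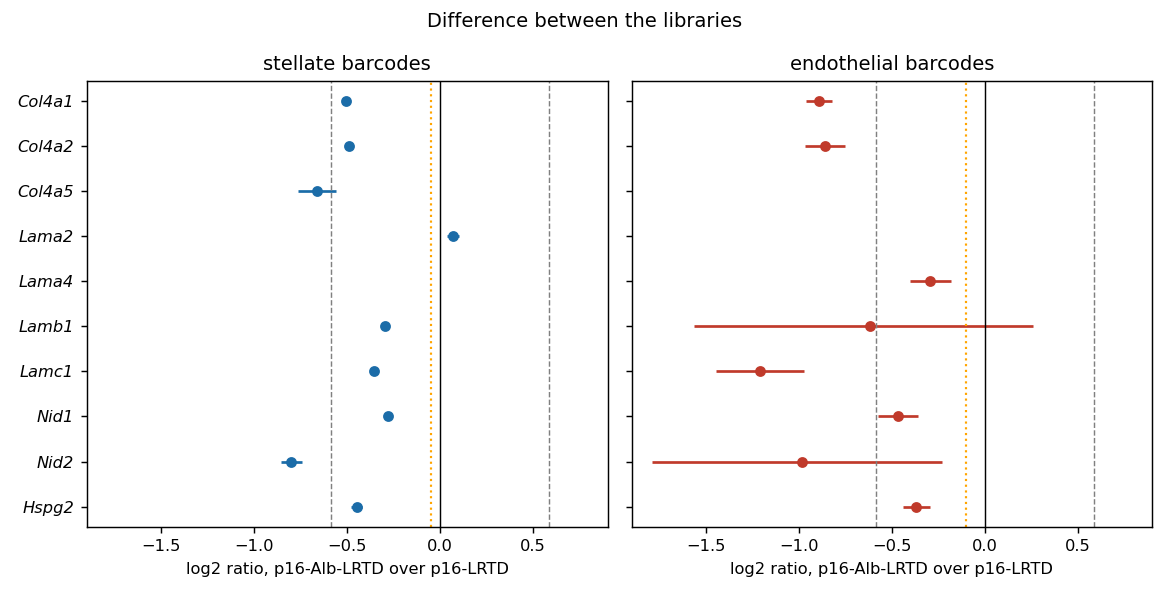
Log2 ratio of p16-Alb-LRTD over p16-LRTD (x axis) for each gene with a mean of at least 5 CPM, in stellate (left) and endothelial (right) barcodes, with exact 95% intervals for counting error. The solid line marks no difference, the dashed lines a 1.5-fold difference and the dotted line the median of all genes tested. In stellate barcodes Lama2 alone lies above 0, at 0.07, and in endothelial barcodes Lamc1 lies farthest left, at -1.21.

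The cells with a Col4a5 UMI differed from the other stellate cells in the rest of their transcripts. In p16-LRTD they held a median of 193 UMIs of Col1a1, Col1a2 and Col3a1 per 10000, against 25.3 in cells without one, and in p16-Alb-LRTD 51.9 against 18.9. Their median of the genes that define the class was lower, at 52.5 against 88.5 per 10000 in p16-LRTD and 52.7 against 98.8 in p16-Alb-LRTD. The 5 portal fibroblast markers summed to 308 against 38.5 CPM in p16-LRTD and to 236 against 18.3 CPM in p16-Alb-LRTD, nearly all of it from Dpt, at 269 against 29.99 CPM and at 211 against 14.4 CPM, and Cd34. Of the 4 mesothelial markers, Wt1 stood at 228 against 16.9 CPM in p16-LRTD and at 325 against 19.8 CPM in p16-Alb-LRTD. The other 3, Msln, Upk3b and Gpm6a, had fewer UMIs, with 31, 30 and 72 in the p16-LRTD cells with a Col4a5 UMI. They too stood higher in these cells, at 1.71, 1.66 and 3.98 CPM against 0.0482, 0.353 and 0.185 CPM without one. In p16-Alb-LRTD they had 0, 4 and 1 UMIs in cells with a Col4a5 UMI and 2, 22 and 6 in cells without one. All 9 markers of these lists were counted in stellate barcodes of each library. Cells with a Col4a5 UMI were also deeper, with medians of 22185 against 16602 UMIs in p16-LRTD and 19055 against 18053.5 in p16-Alb-LRTD. The part of these cells in the Col4a5 difference was not tested. Over all stellate barcodes the portal fibroblast markers summed to 72.7 and 35.2 CPM, with 4 of 5 lower in p16-Alb-LRTD, and Wt1 stood at 43.7 and 43.5 CPM (log2 ratio -0.008, -0.06 to 0.05). Msln had 37 and 2 UMIs, Upk3b 74 and 26, and Gpm6a 95 and 7, so 3 of the 4 mesothelial markers were lower in p16-Alb-LRTD beyond counting error.

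The basement membrane genes were next read against fibrillar collagen, the product of activated HSCs. Stellate barcodes of both libraries were pooled and cut into tertiles of their Col1a1, Col1a2 and Col3a1 UMIs, at 16.6 and 37.0 per 10000. The tertiles held 2266, 2077 and 3509 cells of p16-LRTD and 2558, 2747 and 1316 of p16-Alb-LRTD. The highest tertile was not alike in the libraries, since Col1a1 itself stood there at 3642 and 1691 CPM.

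Col4a1 was lower in p16-Alb-LRTD in each tertile. It stood at 1497 and 1003 CPM in the lowest, 1404 and 859 CPM in the middle, and 1156 and 868 CPM in the highest, with log2 ratios of -0.58, -0.71 and -0.41. Its level therefore went down, not up, with the fibrillar collagens across p16-LRTD cells. Col4a2 had log2 ratios of -0.42, -0.54 and -0.49, and its highest and lowest tertiles differed little, at 588 and 590 CPM in p16-LRTD. Nid2 had ratios of -0.75, -0.96 and -0.79, Lamb1 of -0.25, -0.39 and -0.36, and Nid1 of -0.19, -0.34 and -0.30. For these 5 genes the intervals of the ratio lay below 0 in every tertile.

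Lamc1 also had log2 ratios below 0 in each, at -0.52, -0.60 and -0.34. Its level in the highest tertile was 0.642 times that in the lowest in p16-LRTD and 0.725 times in p16-Alb-LRTD. Hspg2 behaved otherwise: its log2 ratios were 0.10 (0.04 to 0.16), -0.03 (-0.09 to 0.02) and -0.50 (-0.55 to -0.45). The highest tertile of p16-LRTD held 2.26 times the Hspg2 level of the lowest and 67.3% of its stellate UMIs, and in p16-Alb-LRTD it held 1.49 times and 25.3%. With the tertile shares of the pooled libraries given to each library, the Hspg2 log2 ratio was -0.21, against -0.45 over all stellate barcodes. That of Lamc1 was -0.50, against -0.36.

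Lama2 ran the other way from Hspg2. It stood at 109 and 92.3 CPM in the lowest tertile, 100 and 96.1 CPM in the middle, and 98.8 and 155 CPM in the highest, with log2 ratios of -0.23 (-0.30 to -0.17), -0.06 (-0.12 to 0.01) and 0.65 (0.60 to 0.71). The near absence of a Lama2 difference over all stellate barcodes thus held both directions. Col4a5 was almost absent from the lowest tertile, at 0.405 and 0.474 CPM, and stood at 30.2 and 39.4 CPM in the highest. Of its UMIs, 98.3% in p16-LRTD and 79.0% in p16-Alb-LRTD came from that tertile. Within it Col4a5 was higher in p16-Alb-LRTD, with a log2 ratio of 0.38 (0.27 to 0.49), opposite to its ratio over all stellate barcodes. In the middle tertile it had 24 and 238 UMIs. With the tertile shares of the pooled libraries given to each library, the Col4a5 log2 ratio was 0.51.

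**Figure D4:**
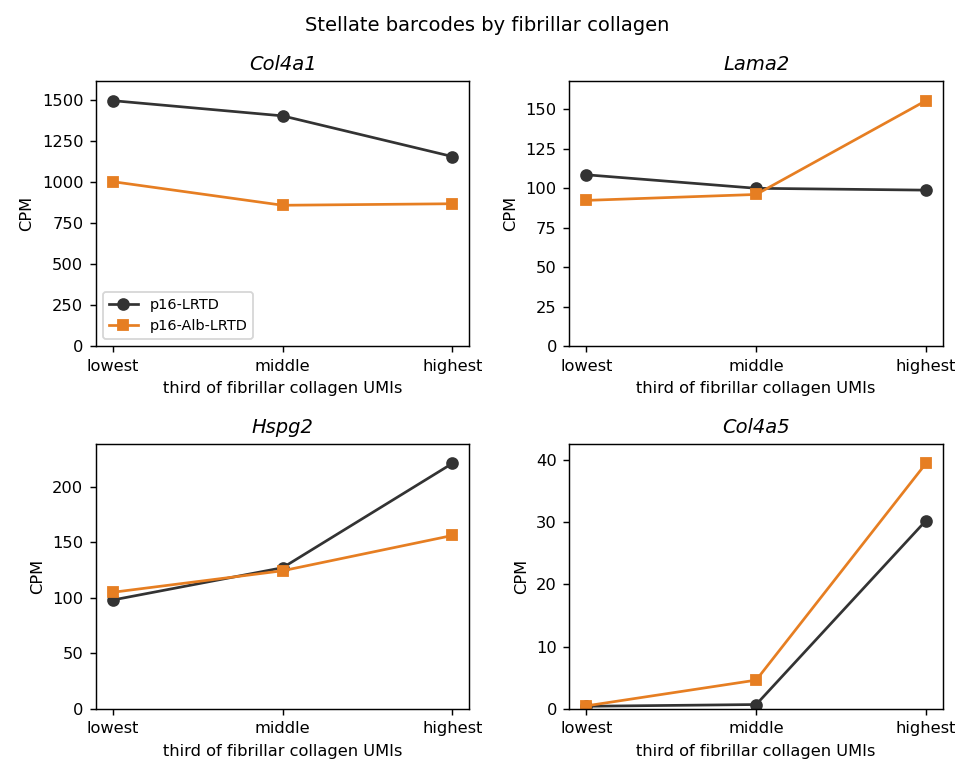
Level (y axis, CPM from 0) of Col4a1, Lama2, Hspg2 and Col4a5 in stellate barcodes of the lowest, middle and highest tertile of fibrillar collagen UMIs (x axis), with black circles for p16-LRTD and orange squares for p16-Alb-LRTD, 1 library each. Col4a1 is lower in p16-Alb-LRTD in each tertile, while Lama2 and Hspg2 part in the highest one, at 98.8 against 155 CPM and 221 against 156 CPM.

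Proliferation and stress genes differed between the libraries in the same cells. The proliferation markers Mki67, Top2a, Cenpf and Birc5 summed to 71.7 and 8.94 CPM in stellate barcodes, with 4 of 4 lower in p16-Alb-LRTD, and the Col4a1 log2 ratio was -0.52 in cells without a UMI of the first 3. The dissociation stress genes Fos, Jun, Junb, Egr1, Hspa1a and Hspa1b summed to 4412 and 7018 CPM, with 6 of 6 higher, and their part in the ratios was not tested. The 4 smooth muscle and pericyte markers were all lower in p16-Alb-LRTD by unequal amounts. Rgs5 stood at 2312 and 1925 CPM (log2 ratio -0.26), Myh11 at 150 and 73.8 CPM (-1.03), Notch3 at 40.4 and 13.1 CPM (-1.62), and Actg2 had 57 and 10 UMIs. Their part in the ratios was not tested.

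In endothelial barcodes Col4a1, Col4a2, Lamc1 and Nid1 were lower in p16-Alb-LRTD, with log2 ratios from -0.47 to -1.21, and so were Lama4 and Hspg2. Of the 10 genes, 7 stood at 5 CPM or more in each library, and 4 of these, Col4a1, Col4a2, Lamc1 and Nid2, were at least 1.5-fold lower. None was higher by that much. Over the 9463 genes at that level in each library, 11.7% were lower and 5.67% higher past the fold, and the median log2 ratio was -0.09, against -0.86 for the 7. Lamb1 reached a mean of 5 CPM only through p16-LRTD, at 6.17 against 4.02 CPM, and with it 5 of 8 genes were past the fold, where 13.5% of 9858 genes were lower and 6.44% higher. Col4a5 and Lama2 lay under the minimum.

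Col4a1 stood at 996 CPM (971 to 1021) in endothelial barcodes of p16-LRTD and at 537 CPM (514 to 560) in those of p16-Alb-LRTD. The log2 ratio was -0.89 (-0.96 to -0.82), or 1.85-fold lower, and its interval does not meet that of the stellate ratio. Col4a2 stood at 438 and 242 CPM, a log2 ratio of -0.86 (-0.97 to -0.75). The median endothelial cell carried 12 Col4a1 UMIs in p16-LRTD and 6 in p16-Alb-LRTD, at median depths of 11781 and 11992 UMIs. A Col4a1 UMI was found in 98.6% (96.9 to 99.5) and 88.7% (84.4 to 92.1) of cells thinned to 5000 UMIs, with 12 and 0 shallower cells left out, and in 99.3% and 96.1% without thinning.

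Lamc1 stood at 111 CPM (103 to 119) and 48.0 CPM (41.4 to 55.3), a log2 ratio of -1.21 (-1.45 to -0.97). A Lamc1 UMI was found in 35.9% (31.3 to 40.7) and 22.3% (17.6 to 27.6) of thinned and in 66.3% and 41.7% of unthinned endothelial cells, against 3.96% and 2.26% of thinned Kupffer cells. When barcodes past the stellate or Kupffer limit as well were allowed in, the Lamc1 ratio was -0.16 and 2 genes of the list were past the fold. Lamc1 stood at 437 and 337 CPM in the barcodes past more than 1 limit.

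Lama4 and Hspg2 were higher in endothelial than in stellate barcodes in each library. Lama4 stood at 320 CPM (306 to 334) and 261 CPM (245 to 277), a log2 ratio of -0.29 (-0.40 to -0.18). Hspg2 stood at 762 CPM (740 to 784) and 589 CPM (566 to 614), a log2 ratio of -0.37 (-0.44 to -0.30), and stellate barcodes held 22.1% and 20.9% of those levels. Nid1 stood at 350 CPM (335 to 365) and 253 CPM (237 to 269), a log2 ratio of -0.47 (-0.58 to -0.36). For these 3 genes the intervals of the libraries do not meet, and none passed 1.5-fold.

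The rarer genes in endothelial barcodes were set against free RNA, which gives every cell a small share of the transcripts of the most common cells. The stellate genes Dcn and Colec11 stood in endothelial barcodes at 1.73% and 1.64% of their stellate level in p16-LRTD, and at 1.16% and 1.40% in p16-Alb-LRTD. The other stellate references, Col1a1, Col1a2 and Col3a1, stood at 5.42% to 11.0% in p16-LRTD and at 0.996% to 1.89% in p16-Alb-LRTD. Lamb1 stood at 1.49% and 1.19%, within or below the references of each library. Lama2 stood at 2.56% and 2.12%, within them in p16-LRTD and just above all 5 in p16-Alb-LRTD, from 16 and 9 UMIs. Their endothelial values are read as background, for Lama2 with that limit. Col4a1 stood at 76.6% and 58.6%, Nid1 at 75.8% and 66.7%, Lamc1 at 21.5% and 11.9%, and Nid2 at 18.9% and 16.7%, all above the 5 references of the same library.

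The Lamb1 call rests on 38 and 16 UMIs (log2 ratio -0.62, -1.56 to 0.26), and Nid2 had 61 and 20. In p16-LRTD, 4 endothelial barcodes carried at least 10 fibrillar collagen UMIs per 10000, against 0 in p16-Alb-LRTD. Without them the Lamb1 ratio was -0.10, 4 genes of the list were past the fold, Col4a1 stayed at -0.89, and Col4a5 had 2 UMIs in place of 14. Egfl7 and Lyve1, markers of endothelium, stood at 1524 and 797 CPM and at 1111 and 669 CPM, while Clec4g stood at 1225 and 1268 CPM. Of the 9 endothelial markers, 5 were lower in p16-Alb-LRTD. The proliferation markers summed to 39.8 and 4.77 CPM and the stress genes to 1876 and 3538 CPM in this class. The part of either, or of a shift among kinds of endothelial cell, was not tested.

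Kupffer barcodes held little of the 10 genes. The 9 Kupffer markers summed there to 21647.6 and 26064.5 CPM, with 1 of 9 lower in p16-Alb-LRTD. Marco stood at 508 and 1461 CPM and Cd74 at 1553 and 2714 CPM. The part of a shift among these macrophages in the ratios was not tested. Only Col4a1 and Nid2 stood at 5 CPM or more in each library, and Col4a1 was at least 1.5-fold lower in p16-Alb-LRTD, where 5.08% of 9151 genes were lower and 4.73% higher by that much. Lamc1 reached a mean of 5 CPM only through p16-LRTD, and with it 2 of 3 genes were past the fold, where 6.83% of 9514 genes were lower and 5.21% higher. Col4a1 stood at 13.1 CPM (10.4 to 16.4) and 7.38 CPM (5.08 to 10.4), which is 1.01% and 0.805% of its stellate level. Lamc1 stood at 9.08 and 4.47 CPM, or 1.76% and 1.11%. The 5 stellate references stood in Kupffer barcodes at 1.15% to 2.35% of their stellate level in p16-LRTD and at 0.957% to 1.70% in p16-Alb-LRTD. The Kupffer values of Col4a1, Col4a2, Lamb1, Lamc1 and Nid1 lay within or below that range and are read as background.

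Nid2 alone lay above the range of the stellate references in Kupffer barcodes of both libraries. Its levels were 16.3 CPM (13.2 to 19.9) and 12.3 CPM, which is 31.2% of its stellate level in p16-LRTD and 40.96% in p16-Alb-LRTD. It came from 97 UMIs in 68 of 283 cells and 55 UMIs in 39 of 178 cells, with at most 4 and 5 UMIs in 1 cell. Its log2 ratio of -0.41 (-0.91 to 0.08) spans 0, a difference within counting error. The stellate markers summed to 570 and 492 CPM in Kupffer barcodes, and their part in the Nid2 level was not tested. Hspg2 had 27 and 9 UMIs in Kupffer barcodes, at 4.54 and 2.01 CPM. Col4a5 stood at 9.62% of its stellate level in p16-LRTD, above the references. It had 9 UMIs in 2 p16-LRTD Kupffer barcodes, 8 of them in 1, and 0 UMIs in p16-Alb-LRTD. For the 177 of these cells thinned to 5000 UMIs, the exact interval of the share with a Col4a5 UMI reaches 2.06%, and a limit of 3 counts gives 1.69%.

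The other genes of the basement membrane were read from 4 lists beside the 10. Of 10 other collagen IV and laminin chains, 4 passed 5 CPM in stellate barcodes, 0 were lower and 2 higher past the fold, with a median log2 ratio of 0.25. The 2 were Lamb3, a beta chain of epithelial laminin, at 5.85 and 11.1 CPM, and Lama5, at 3.83 and 6.78 CPM. Lama5 passed only through p16-Alb-LRTD, and without it the median of the other three was -0.32, so the median has no settled direction. Lamb2, the beta chain found at vessels and synapses, stood at 21.2 and 16.9 CPM. In endothelial barcodes 5 passed, 0 were lower and 2 higher, with a median of 0.38. These were Col4a4, at 14.9 and 26.1 CPM, and Lama3, at 15.9 and 29.4 CPM, while Lamb2 stood at 31.5 and 30.4 CPM (log2 ratio -0.05, -0.39 to 0.28). In stellate barcodes 2 of the 4, Lama1 and Lamb2, had ratios below 0 and 2 above.

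Of 14 other basement membrane components, 10 passed in stellate barcodes, with 2 lower, 0 higher and a median log2 ratio of 0.02. Sparc, a collagen-binding glycoprotein, stood at 5216 and 2823 CPM (log2 ratio -0.89), and Col15a1, a collagen that links basement membranes to the matrix around them, at 22.1 and 4.27 CPM (log2 ratio -2.37, -2.51 to -2.24), so that it passed only through p16-LRTD. Efemp1, at 376 and 392 CPM, and Pxdn, the peroxidasin that crosslinks collagen IV, at 166 and 170 CPM, had log2 ratios of 0.06 and 0.03. In endothelial barcodes 6 passed, with 2 lower and 0 higher and a median of -0.13: Sparc, at 1921 and 846 CPM, and Tinagl1, at 1326 and 884 CPM. Ntn4, a laminin-related netrin, stood there at 446 and 454 CPM.

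Of 14 receptors, 11 passed in stellate barcodes, with 2 lower, 0 higher and a median log2 ratio of -0.17. Itga1, the collagen-binding integrin alpha chain, stood at 881 and 834 CPM, and Itgb1, its beta partner, at 881 and 781 CPM. The lower ones were Itga6, a laminin-binding alpha chain, at 20.6 and 12.4 CPM, and Itga2, at 8.23 and 3.96 CPM, which passed only through p16-LRTD. In endothelial barcodes 9 passed, with 2 lower, 1 higher and a median of -0.07. Itga6 was lower there as well, at 172 and 82.8 CPM (log2 ratio -1.05, -1.24 to -0.87), as was Ddr2, at 6.34 and 4.02 CPM, which likewise passed only through p16-LRTD. Bcam, a receptor of laminin-alpha-5, was higher, at 16.7 and 30.9 CPM.

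All 10 genes of collagen folding and secretion passed in stellate barcodes, and 0 were past the fold in either direction, with a median log2 ratio of -0.17. Serpinh1, the collagen chaperone HSP47, stood at 933 and 842 CPM, P4hb at 234 and 183 CPM, and P4ha1, a prolyl hydroxylase, at 133 and 154 CPM. In endothelial barcodes 9 passed and 1 was lower, Colgalt1, a collagen galactosyltransferase, at 136 and 87.9 CPM, with a median of -0.26. In Kupffer barcodes 0 other chains passed. Of 2 other components, 6 receptors and 8 folding genes that passed there, 1 component was lower past the fold and 0 genes were higher.

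The fibrillar collagens were read for comparison. Of 6, all 6 passed in stellate barcodes and 5 were at least 1.5-fold lower, with a median log2 ratio of -1.38. Over all 10179 genes that passed there, 3.05% were lower by that much. Col3a1 stood at 4085 and 1343 CPM, Col1a2 at 2318 and 1004 CPM, and Col1a1 at 1950 and 504 CPM. In endothelial barcodes all 5 that passed were lower, with a median of -3.13, where 13.5% of 9858 genes were lower. At 5 CPM or more in each library all 4 were lower, where 11.7% of 9463 genes were. Without the 4 barcodes rich in fibrillar collagen 3 of 4 were lower, with a median of -1.13. In p16-Alb-LRTD, Col1a1, Col1a2 and Col3a1 stood there at 0.996% to 1.89% of their stellate level, so these values are read as background. Col1a1, at 215 and 5.02 CPM, had a log2 ratio of -5.42 with, and -1.69 without, those 4 barcodes, and Col5a2 of -0.69 and -0.06. In Kupffer barcodes all 4 that passed were lower, with a median of -1.68, and of -1.19 without 1 barcode rich in fibrillar collagen. Of the 9514 genes that passed there, 6.83% were lower. At 5 CPM or more in each library all 3 were lower, where 5.08% of 9151 genes were. Col1a1, Col1a2 and Col3a1 stood at 1.15% to 2.35% and 0.957% to 1.70% of their stellate level, so these values are read as background.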

How the data were processed

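The values that the authors deposited are raw UMI counts of each gene in each barcode of 10x 3′ v3.1 libraries of Nycodenz-purified HSCs, made with Cell Ranger 7.0.1 and mm10 per the submitters' processing notes. No normalized values were used. Because transcripts are tagged at the 3′ end, a higher CPM of one gene than of another was not read as a result. The UMIs of Col4a1 were divided by those of Col4a2 only to set that ratio side by side between classes and libraries. Everything else was computed here (Python 3.11.15, SciPy 1.17.1). After the study's methods, barcodes with over 5% mitochondrial UMIs, under 2000 or over 7000 genes, or over 50000 UMIs were left out. No doublet caller was used: barcodes past more than 1 class limit, 245 in p16-LRTD and 221 in p16-Alb-LRTD, were set aside, and 194 and 113 past none were unclassified. UMIs were summed over a class and divided by its total (142651137 and 125115995 UMIs in stellate, 6154423 and 3983226 in endothelial, 5945102 and 4473285 in Kupffer barcodes). Levels carry exact Poisson intervals, shares exact Clopper-Pearson intervals, and log2 ratios of p16-Alb-LRTD over p16-LRTD exact conditional intervals, all for counting error only.

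With 1 library per genotype no test was made. A gene was called past the fold at 1.5-fold and a mean of 5 CPM. Correlations used log-normalised counts of cells thinned to 5000 UMIs. The text names all 10 genes, 2 to 4 genes per list, chosen by mean CPM so that their counts are high, and the 10 genes most correlated with Col4a1 and Col4a2. Col15a1, Itga2, Itga6, Bcam, Ddr2 and Col5a2 were named after their values were seen. The genes and lists were chosen with earlier results of these data known. Coordinates are from GENCODE vM21, which matched 30934 of 31054 features by identifier. Alternatives were other class limits, filters, cell depths, minimum levels and folds, per-cell means, pooled tertile shares, and TMM (edgeR 4.0.16) and median-of-ratios scaling.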

Additional observations from a re-analysis of the deposited data

How the results depend on the processing

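The count of genes at least 1.5-fold lower in stellate barcodes, 2, became 1 with cells of 10000 to 30000 UMIs or with per-cell means, 0 at a fold of 2, and 3, with Lama4 added, at a minimum of 1 CPM or none. In endothelial barcodes the 5 became 4, with Lamb1 lost, under 10 of 18 alternatives, both scalings among them, 2 with barcodes allowed in 2 classes, 1 at a fold of 2, and 6, with Col4a5 added, at a minimum of 1 CPM or none. In Kupffer barcodes the 2 became 8 with barcodes allowed in 2 classes or no minimum level, 6 with a minimum of 1 CPM, 4 with a stellate limit of 30 or per-cell means, 3 without cells with Mki67, Top2a or Cenpf, and 1 with endothelial and Kupffer limits of 4, few markers of other classes, cells of 10000 to 30000 UMIs, at least 5 CPM in each library, or a fold of 2. None of the 10 genes was higher past the fold in any class under the alternatives run. Of 289 recomputed log2 ratios, 237 lay inside the interval of the reported value and 52 outside it, and 7 changed sign. Of the 7, 5 belong to genes past the fold: Col4a5 in stellate barcodes, 0.51 with pooled tertile shares, Lamb1 in endothelial barcodes, 0.31 with barcodes allowed in 2 classes, 0.38 with few markers of other classes and 0.22 with 10000 to 30000 UMIs, and Lamc1 in Kupffer barcodes, 0.51 with few markers of other classes. The others were Lama2 in stellate barcodes, -0.007 with per-cell means, and Nid2 in Kupffer barcodes, 0.07 with cells without Mki67, Top2a or Cenpf. The cause was not tested. TMM and median-of-ratios scaling moved all stellate ratios by 0.04 and 0.05 and endothelial ratios by 0.08 and 0.10. Col4a1 in stellate barcodes ranged from -0.57 to -0.46 over 15 alternatives, and in endothelial barcodes from -0.94 to -0.69 over 14. The alternatives with endothelial and Kupffer barcodes of low fibrillar collagen and with at least 5 CPM in each library were chosen after seeing the data. No paired analysis was possible because there is only 1 library of each genotype. Depth limits the endothelial values of Lamb1 and Nid2 and every Kupffer value, and the number of mice limits every comparison.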

Other observations

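Genes were ranked by how closely their levels ran with summed Col4a1 and Col4a2 across single stellate cells. Of 6427 genes with at least 20 CPM, the 10 with the highest Pearson r, ranked by the lower value of the 2 libraries, were Cald1, Lsamp, Myh11, Tagln, Lhfp, Actb, Col14a1, Gpc6, Dmd and Clstn2, with r of 0.25 to 0.41 over 7836 and 6614 cells. Cald1 encodes caldesmon, Myh11 smooth muscle myosin and Tagln transgelin. Stellate Cald1 levels were 1419 CPM for p16-LRTD and 1142 CPM for p16-Alb-LRTD (log2 ratio -0.31). Myh11 stood at 150 and 73.8 CPM (log2 ratio -1.03, -1.06 to -0.99) and Tagln at 620 and 435 CPM (-0.51). Clstn2, at 121 and 42.6 CPM, had the lowest ratio of the 10, at -1.50, and Dmd, at 301 and 308 CPM, had a ratio of 0.03. The cells of a library share its preparation and depth, so the correlations are descriptions only.

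Barcodes past none of the class limits numbered 194 and 113, and carried markers of several cell types: hepatocyte markers summed to 1247 and 914 CPM, mesothelial to 619 and 425 CPM and Kupffer to 1881 and 1964 CPM. In them Col4a1 stood at 329 and 138 CPM, Col4a2 at 167 and 70.2 CPM, and Lama4 at 73.4 and 42.4 CPM. Col4a5 stood at 80.1 CPM (72.0 to 88.9) and 59.3 CPM (50.4 to 69.3), above its stellate level of 15.7 and 9.94 CPM in each library. Lamc1 stood at 93.5 and 96.8 CPM (log2 ratio 0.05, -0.18 to 0.28).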
